A study of Mus musculus with 18 samples.

Results

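The Nrf2 antioxidant response genes were examined in the dentate gyrus, the hippocampal field whose principal cells are granule neurons. The 10 members were chosen by gene symbol, as the rows of the authors' 3 deposited tables named Nfe2l2, Slc7a11, Gclc, Gclm, Gsr, Txnrd1, Srxn1, Nqo1, Hmox1 and Osgin1. All 10 were found in every table, out of 24015 rows. The list was drawn up with results of all 3 comparisons known, so the members' changes are described here and no test is claimed for them. RNA came from C57BL/6 mice aged 8 weeks, 1 library per animal by the labels' protocols, in 6 groups of 3 libraries. The groups were cFos_OE, set against EYFP_OE, and shRNA-cFos_E1, shRNA-cFos_E0, shRNA-Ctrl_E1 and shRNA-Ctrl_E0. By their names, cFos_OE overexpressed c-Fos, a protein that forms AP-1 with a Jun partner, and EYFP_OE a yellow fluorescent protein. The other 4 groups carried a hairpin RNA, named for c-Fos or as a control, and the files set E1 against a sham state in a study of neuronal activation. What drives these constructs, and in which cells, is not given in the sources used here.

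Nrf2, the product of Nfe2l2, is a basic leucine zipper factor that the adaptor Keap1 normally delivers to a Cul3 ubiquitin ligase for destruction. Oxidants and electrophiles modify Keap1, and Nrf2 then enters the nucleus, pairs with a small Maf protein and binds antioxidant response elements in genes for glutathione synthesis, thiol repair and detoxification. The core of such an element resembles the AP-1 motif bound by Fos and Jun proteins, and the repressor Bach1 competes for it. In brain the pathway is known to be more active in astrocytes than in neurons. In cultured neurons synaptic activity is known to induce Srxn1 through AP-1.

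For members with a matched promoter window, the sequence near the start shows which hold both kinds of motif there. RefSeq windows (GRCm38.p6, 250 bases before to 50 after an annotated start) were matched by symbol for 7 of the 10 members, with 9 windows in all. Each was searched on both strands for TGACNNNGC and TGAGNNNGC, forms of the antioxidant response element core, and for TGACTCA, the AP-1 motif, which reads TGAGTCA on the opposite strand. Srxn1 held 2 AP-1 matches, at bases -102 to -96 and -45 to -39 from the start, and Osgin1 held 1, at bases -97 to -91. In both genes an AP-1 match lay inside a TGAGTCAGC run, so that 1 stretch matched the AP-1 motif and the TGAGNNNGC core together. Srxn1 held a TGACNNNGC match at bases 29 to 37 and a further TGAGNNNGC match at bases -158 to -150. Nfe2l2, Gclm and Txnrd1 held a TGACNNNGC match, Slc7a11 a TGAGNNNGC match and Nqo1 none of these letters. Txnrd1 had 3 windows, and only window 2 held its match. Hmox1, Gclc and Gsr were the members without a matched window. Of all 32851 windows, 12.4% held TGACNNNGC, 17.6% TGAGNNNGC, 5.2% TGACTCA and 0.414% TGAGTCAGC. The last run was counted after it had been seen in Srxn1 and Osgin1. The stretches below are printed because their genes either held both motifs (Srxn1 and Osgin1) or changed differently with the 2 hairpins (Nfe2l2 and Slc7a11), with the matched letters in capitals. They lie at chr2:152105351-152105502 on the + strand (Srxn1), chr8:119437033-119437071 on the + strand (Osgin1), chr2:75704880-75704913 on the - strand (Nfe2l2) and chr3:50443687-50443725 on the - strand (Slc7a11).
Srxn1: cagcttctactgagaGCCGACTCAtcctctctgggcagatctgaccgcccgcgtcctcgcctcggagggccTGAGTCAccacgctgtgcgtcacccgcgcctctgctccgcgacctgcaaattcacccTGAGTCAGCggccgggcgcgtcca
Osgin1: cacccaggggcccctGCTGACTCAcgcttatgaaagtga
Nfe2l2: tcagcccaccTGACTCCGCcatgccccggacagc
Slc7a11: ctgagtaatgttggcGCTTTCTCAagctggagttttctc

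**Figure D1:**
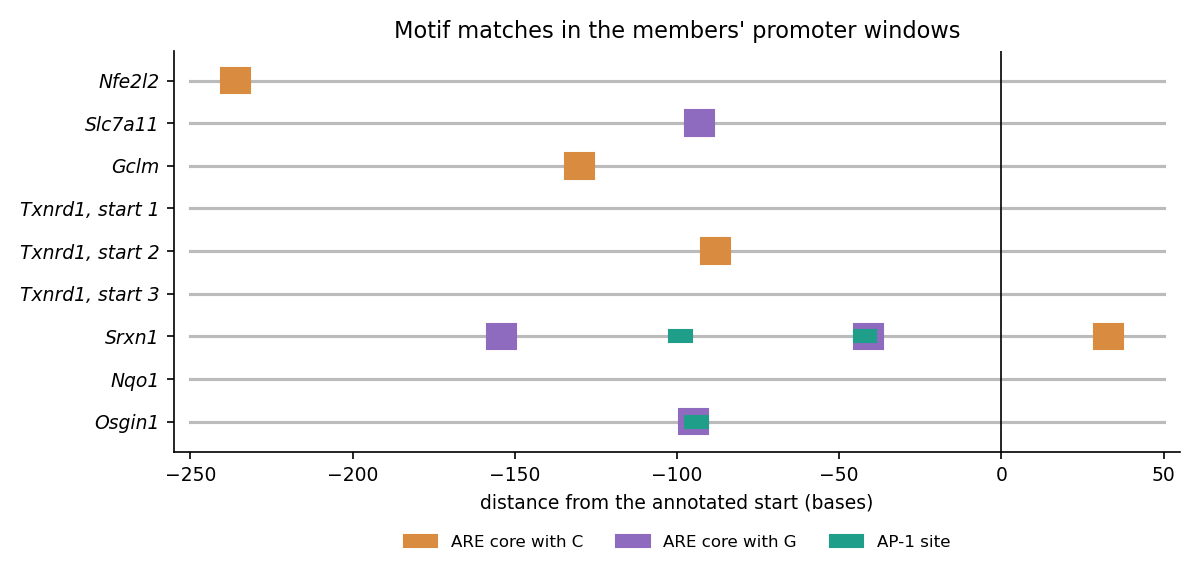
Matches to the antioxidant response element (ARE) core and the AP-1 motif in the promoter windows of 7 members, by distance from the annotated start in bases. In Srxn1 and Osgin1 an AP-1 match lies within an ARE core match.

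The tables hold no values per library, only a mean normalized count, a log2 fold change, its standard error and p-values for each comparison. Each change below is a log2 fold change ± the authors' standard error, and "rose", "fell" or "called" means their adjusted p under 0.05 over all genes. Group levels are estimates from the mean count and the fold change, without error. Fos, the targeted gene, had 3.34 ± 0.20 in the authors' deposited table for overexpression, 2.33 ± 0.15 for shRNA-cFos and 3.36 ± 0.14 for shRNA-Ctrl. Its mean normalized count was 27445, 585 and 1152 in the same order. The standard error of Fos with overexpression (0.2035) was close to the largest there (0.2047). At such standard errors the fold changes appear most strongly pulled toward 0, so the sizes of these 3 changes cannot be compared. All 12 granule neuron markers were tested in each of the authors' deposited tables. Of these, 1 rose and 5 fell with overexpression, 7 rose and 0 fell with shRNA-cFos, and 1 rose and 7 fell with shRNA-Ctrl, by the authors' deposited tables. Of all tested genes 7.10% rose and 5.86% fell with overexpression, 16.3% and 11.7% with shRNA-cFos, and 16.8% and 16.2% with shRNA-Ctrl. These shares also apply to the marker lists counted below. In bulk tissue, fewer cells of a type and less RNA per cell cannot be told apart.

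Between 2 and 5 of the 10 members were called in a comparison, and Srxn1 and Hmox1 were called in all 3. In the authors' deposited table for overexpression 2 of 10 members rose and 0 fell, where 13.0% of 15827 tested genes were called. By the authors' deposited table for shRNA-cFos 1 of 9 tested members rose and 3 fell at E1, where 28.1% of 14388 genes were called. The authors' deposited table for shRNA-Ctrl had 3 of 10 higher and 2 lower at E1, where 33.0% of 15675 genes were called. The members' median log2 fold changes, from the authors' deposited tables, were 0.04 for overexpression, 0.09 for shRNA-cFos and 0.13 for shRNA-Ctrl. Medians of all tested genes were -0.01, -0.00 and 0.01 in the same order. Gclc, Gclm, Txnrd1 and Nqo1 were tested and called in none of the authors' deposited tables.

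**Figure D2:**
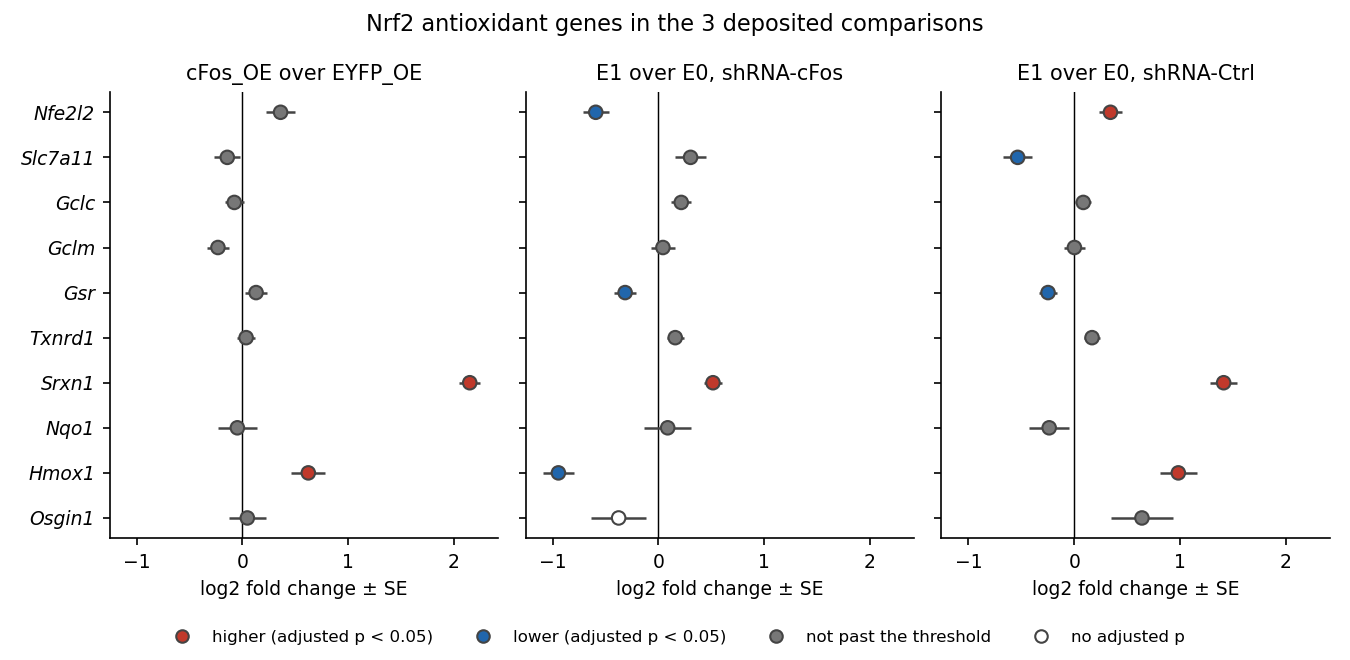
Log2 fold change (points) with the authors' standard error (bars) of the 10 members in the 3 deposited comparisons, coloured by the authors' adjusted p. Srxn1 lies right of 0 in every panel, at 2.15, 0.52 and 1.41, while Hmox1 lies right of 0 with overexpression (0.62) and shRNA-Ctrl (0.98) and left of it with shRNA-cFos (-0.94).

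Srxn1 encodes sulfiredoxin, which restores peroxiredoxins that have been overoxidized by peroxide. Its estimated level was 6205 normalized counts in cFos_OE, against 1264 in EYFP_OE. At E1 it was 1717 in shRNA-cFos_E1, against 1188 in shRNA-cFos_E0, and 3932 in shRNA-Ctrl_E1, against 1403 in shRNA-Ctrl_E0. Srxn1 thus rose in all 3 comparisons, most with c-Fos overexpression and least at E1 with shRNA-cFos. The changes in the authors' deposited tables were 2.15 ± 0.10 with overexpression, 0.52 ± 0.09 with shRNA-cFos and 1.41 ± 0.13 with shRNA-Ctrl. Only 19 of 15827 tested genes had a larger log2 fold change with overexpression in the authors' deposited table, against 793 of 14388 with shRNA-cFos and 128 of 15675 with shRNA-Ctrl. Its promoter is the one printed above with 2 AP-1 matches. Being higher in all 3 of the authors' deposited tables was shared by 116 of the 14341 genes tested in all of them, or 0.809%.

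The E1 response of Srxn1 was smaller with shRNA-cFos than with shRNA-Ctrl, by -0.90 ± 0.15 on the log2 scale, computed from the authors' deposited tables. To place the separately normalized shRNA tables on 1 scale, levels were shifted by the median log2 ratio of their E0 levels (-0.43 over 12406 genes). On that scale Srxn1 in shRNA-cFos over shRNA-Ctrl had a log2 ratio of -0.76 at E1 and 0.19 at E0, from the authors' deposited tables. The larger part of the difference thus lay at E1, as estimated levels that carry no error. Without the shift the ratios were -1.20 at E1 and -0.24 at E0, from the authors' deposited tables.

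**Figure D3:**
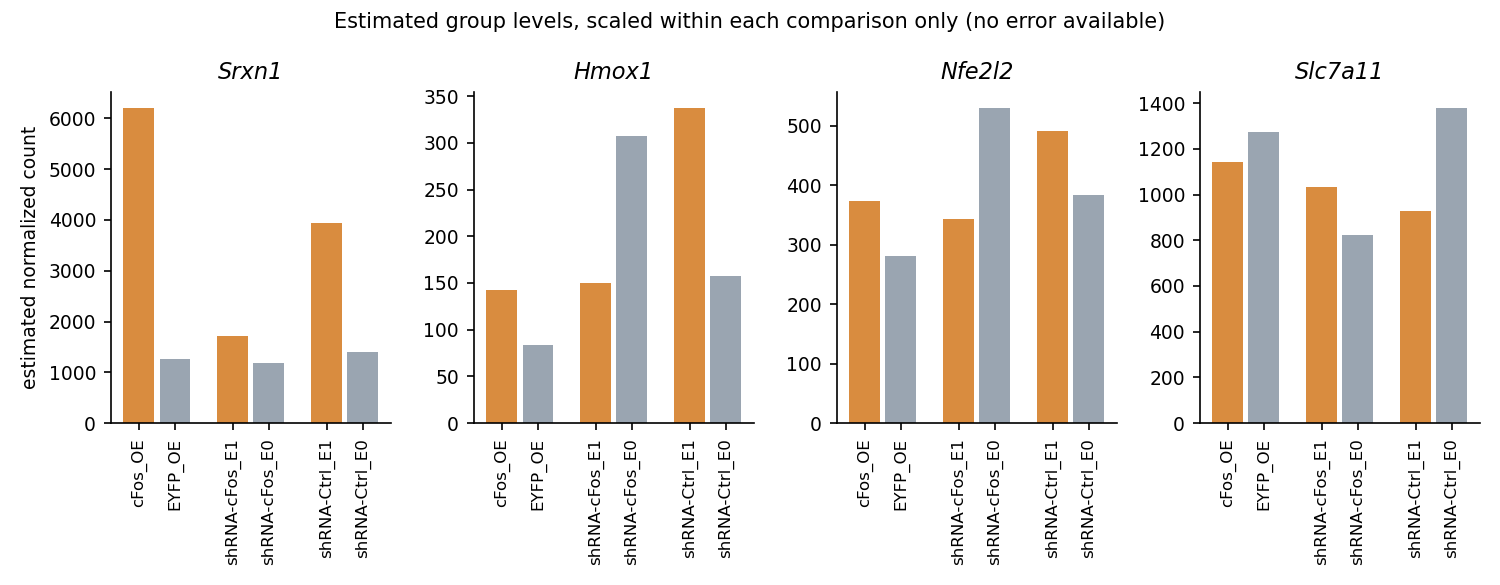
Estimated mean normalized counts of 4 members in each group, with the overexpression or E1 group (orange) left of its EYFP or E0 group (grey); counts were scaled within each comparison only and carry no error. Srxn1 is higher in the orange group of every pair, and Hmox1 and Nfe2l2 are lower in shRNA-cFos_E1 than in shRNA-cFos_E0.

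Hmox1 encodes heme oxygenase, the inducible enzyme that opens the heme ring to biliverdin, carbon monoxide and iron. Its estimated level was 143 normalized counts in cFos_OE, against 83.7 in EYFP_OE. At E1 it was 150.5 in shRNA-cFos_E1, against 307 in shRNA-cFos_E0, and 337 in shRNA-Ctrl_E1, against 158 in shRNA-Ctrl_E0. Unlike Srxn1, Hmox1 fell at E1 with shRNA-cFos and rose in the other comparisons. Its changes in the authors' deposited tables were 0.62 ± 0.16 with overexpression, -0.94 ± 0.14 with shRNA-cFos and 0.98 ± 0.18 with shRNA-Ctrl. With shRNA-cFos only 50 of 14388 tested genes had a lower log2 fold change in the authors' deposited table. The E1 responses of Hmox1, shRNA-cFos minus shRNA-Ctrl, differed by -1.93 ± 0.23 on the log2 scale, computed from the authors' deposited tables. After the shift between tables, its log2 ratio, shRNA-cFos over shRNA-Ctrl, was -0.73 at E1 and 1.39 at E0, from the authors' deposited tables, the larger part lying at E0. Without the shift these ratios were -1.17 and 0.96, from the authors' deposited tables, and the part at E1 was then the larger.

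Most microglial markers that were called moved in the same direction as Hmox1. Of 12 markers tested, 8 rose and 0 fell with overexpression, 1 rose and 7 fell with shRNA-cFos, and 9 rose and 0 fell with shRNA-Ctrl, in the authors' deposited tables. The list was split with shRNA-cFos, where the 7 were Ctss, C1qa, C1qb, C1qc, Aif1, Tyrobp and Itgam. P2ry12 rose there (0.32 ± 0.13). Not called there were Cx3cr1 (-0.02 ± 0.09), Csf1r (-0.01 ± 0.09), Tmem119 (0.05 ± 0.12) and Trem2 (-0.40 ± 0.17). The summed estimated level of the list was 12070 normalized counts in cFos_OE, against 8673 in EYFP_OE. It was 8236 in shRNA-cFos_E1, against 10724 in shRNA-cFos_E0, and 15276 in shRNA-Ctrl_E1, against 11081 in shRNA-Ctrl_E0. All 12 were detected well enough to be tested in each of the authors' deposited tables, and their part in the Hmox1 values was not tested. Srxn1 rose with shRNA-cFos, where most of these markers fell. Of 10 interneuron markers tested, 6 rose and 0 fell with shRNA-cFos, and 7 rose and 0 fell with shRNA-Ctrl, by the authors' adjusted p. With overexpression 1 of them rose and 1 fell. The part of any cell type in the Srxn1 values was not tested. The tested genes nearest to Hmox1 over the 3 log2 fold changes, out of 14341, were Fcgr1, Psmb9, Trim30a, Slc15a3 and Oas1a. Fcgr1 encodes an Fc receptor of myeloid cells, Psmb9 an immunoproteasome subunit, and Trim30a and Oas1a are interferon-induced. Their Euclidean distances from Hmox1, computed from the authors' deposited tables, were between 0.122 and 0.140 log2 units.

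Nfe2l2, the gene of Nrf2 itself, had an estimated level of 373 normalized counts in cFos_OE, against 280.4 in EYFP_OE. At E1 it was 343 in shRNA-cFos_E1, against 529.9 in shRNA-cFos_E0, and 492 in shRNA-Ctrl_E1, against 384 in shRNA-Ctrl_E0. The regulator fell at E1 with shRNA-cFos and rose at E1 with shRNA-Ctrl. In the authors' deposited tables its changes were -0.59 ± 0.12 with shRNA-cFos and 0.34 ± 0.11 with shRNA-Ctrl. Overexpression gave 0.36 ± 0.14 in the authors' deposited table, which did not pass the threshold (adjusted p = 0.0572, authors' DESeq2). The E1 responses differed by -0.93 ± 0.16, computed from the authors' deposited tables. With the tables on 1 scale its log2 ratio, shRNA-cFos over shRNA-Ctrl, was -0.09 at E1 and 0.90 at E0, from the authors' deposited tables, so that the larger part lay at E0, as for Hmox1. Without the shift it was -0.52 at E1 and 0.46 at E0, from the authors' deposited tables, and the part at E1 was then slightly the larger. With both hairpins most called microglial markers had the directions of Nfe2l2 as well, and their part in its values was not tested. Nfe2l2 and Hmox1 were among 266 genes (1.85% of 14341) that fell with shRNA-cFos and rose with shRNA-Ctrl in the authors' deposited tables.

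**Figure D4:**
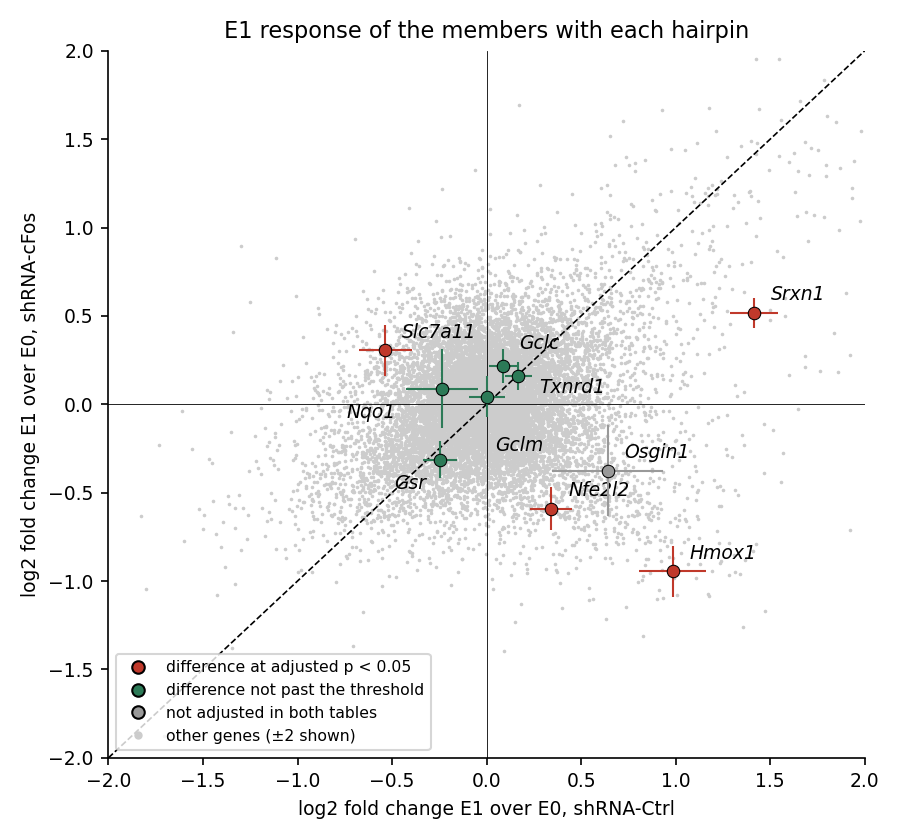
Log2 fold change E1 over E0 with shRNA-Ctrl (horizontal) and with shRNA-cFos (vertical) for the members (points with the authors' standard errors) and all other tested genes within ±2 (grey); the dashed line marks equal responses. Hmox1, Nfe2l2 and Srxn1 lie below the line and Slc7a11 above it.

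The 3 members that act in glutathione synthesis were called once in all, when Slc7a11 fell with shRNA-Ctrl. Slc7a11 encodes the cystine importer of the xc- antiporter, and Gclc and Gclm the catalytic and modifier subunits of the rate-limiting glutamate-cysteine ligase. Slc7a11 was estimated at 1142 normalized counts in cFos_OE against 1275 in EYFP_OE, 1034 in shRNA-cFos_E1 against 822 in shRNA-cFos_E0, and 929.7 in shRNA-Ctrl_E1 against 1379 in shRNA-Ctrl_E0. It fell at E1 with shRNA-Ctrl and passed in neither other comparison. The authors' deposited tables gave it -0.14 ± 0.12 with overexpression, 0.31 ± 0.14 with shRNA-cFos and -0.53 ± 0.14 with shRNA-Ctrl. The difference of its E1 responses, shRNA-cFos minus shRNA-Ctrl, was 0.84 ± 0.20, computed from the authors' deposited tables, opposite in sign to those of Srxn1, Hmox1 and Nfe2l2. On the shared scale its log2 ratio, shRNA-cFos over shRNA-Ctrl, was 0.59 at E1 and -0.31 at E0, from the authors' deposited tables. Without the shift it was 0.15 at E1 and -0.75 at E0, from the authors' deposited tables, so whether E1 or E0 held the larger part turned with the scaling.

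Gclc and Gclm were called nowhere. Gclc had -0.08 ± 0.09 with overexpression, 0.22 ± 0.09 with shRNA-cFos and 0.09 ± 0.07 with shRNA-Ctrl in the authors' deposited tables. Gclm had -0.23 ± 0.10, 0.04 ± 0.11 and 0.00 ± 0.10 in the same order, from the authors' deposited tables. The farthest of these 6 values from 0 was the -0.23 of Gclm with overexpression, from the authors' deposited table. Beside Slc7a11, 6 of 11 tested choroid plexus and meningeal markers fell at E1 with shRNA-Ctrl and 0 rose, by the authors' deposited table. That list's summed estimate was 1888 normalized counts in shRNA-Ctrl_E1, against 4268 in shRNA-Ctrl_E0. With shRNA-cFos 0 of 9 were called in the authors' deposited table, with sums of 2405 in shRNA-cFos_E1 and 2193 in shRNA-cFos_E0. In the authors' deposited table for overexpression 2 of 12 rose and 0 fell, with sums of 4821 in cFos_OE and 3786 in EYFP_OE. Astrocyte markers rose for 7 of 12 and fell for 1 with shRNA-cFos, and rose for 3 and fell for 0 with shRNA-Ctrl, in the authors' deposited tables. With overexpression 2 of the astrocyte markers rose and 3 fell. Their E1 response was higher with shRNA-cFos than with shRNA-Ctrl for 5 and lower for 3. Granule neuron markers, counted above, mostly fell with shRNA-Ctrl, as did Slc7a11. With shRNA-cFos and overexpression most of the called ones had the signs of the Slc7a11 changes, which were not called there. By the difference computed from the authors' deposited tables, 9 of 12 had a higher E1 response with shRNA-cFos and 0 a lower one. Of all genes 12.9% were higher and 11.0% lower by the same test. The part of any of these cell types in the Slc7a11 values was not tested.

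The reductases changed little. Gsr, glutathione reductase, regenerates glutathione with NADPH, and Txnrd1, the cytosolic thioredoxin reductase, does the same for thioredoxin. Gsr fell at E1 in both hairpin arms, by similar amounts, with -0.31 ± 0.10 for shRNA-cFos and -0.25 ± 0.09 for shRNA-Ctrl in the authors' deposited tables. Its estimated levels were 434 normalized counts in shRNA-cFos_E1 against 545 in shRNA-cFos_E0, and 508 in shRNA-Ctrl_E1 against 605 in shRNA-Ctrl_E0. Overexpression gave Gsr 0.13 ± 0.10 in the authors' deposited table, without a call, with estimates of 505 in cFos_OE and 459 in EYFP_OE. Txnrd1 had 0.03 ± 0.08 with overexpression, 0.16 ± 0.08 with shRNA-cFos and 0.17 ± 0.07 with shRNA-Ctrl in the authors' deposited tables, without a call. The differences of the E1 responses were -0.07 ± 0.14 for Gsr and -0.01 ± 0.11 for Txnrd1, computed from the authors' deposited tables, both smaller than their standard errors.

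Nqo1 and Osgin1 were thinly covered. Nqo1 encodes a quinone reductase and is a classic Nrf2 target. Its mean normalized count was between 47.3 and 56.3 in the authors' deposited tables. Its changes were -0.05 ± 0.19 with overexpression, 0.09 ± 0.22 with shRNA-cFos and -0.24 ± 0.19 with shRNA-Ctrl in the authors' deposited tables. None was called. Osgin1, an oxidative stress-induced growth inhibitor gene, had mean counts of 7.03, 11.0 and 13.1 in the same order in the authors' deposited tables. Its changes were 0.05 ± 0.17, -0.38 ± 0.26 and 0.64 ± 0.29 there, in the authors' deposited tables. The last did not pass (adjusted p = 0.0770, authors' DESeq2), and with shRNA-cFos no adjusted p was given. The standard errors of Osgin1 with the hairpins were close to the largest in each table, so its changes there are poorly determined. Osgin1 shares the TGAGTCAGC run with Srxn1, and the part of that run in the values of either gene was not tested.

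Setting the 2 hairpins against each other across members, 1 of the 9 tested in both tables had a higher E1 response with shRNA-cFos and 3 a lower one, computed from the authors' deposited tables. Of all 14386 genes 23.8% differed by the same test on the authors' deposited tables, 12.9% upward and 11.0% downward. The remaining 5 members, Gclc, Gclm, Gsr, Txnrd1 and Nqo1, had differences between -0.07 and 0.33, none past the threshold, computed from the authors' deposited tables.

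Stricter rules left fewer members called in the hairpin comparisons, and with overexpression only Bonferroni adjustment did. At an adjusted p under 0.01 the members called were 2 with overexpression, 3 with shRNA-cFos and 4 with shRNA-Ctrl, beside 8.63%, 18.2% and 23.8% of all genes, by the authors' deposited tables. Past a minimum of 1.5-fold there were 2 members in each comparison, beside 3.89%, 7.49% and 10.6% of genes in the authors' deposited tables. Under Bonferroni adjustment there were 1, 3 and 2 in that order, beside 3.87%, 7.12% and 10.2%, by the authors' deposited tables. Hmox1 passed the first 2 of these rules in every comparison. The 4 differing E1 responses all exceeded 1.5-fold, as did 11.9% of all genes, computed from the authors' deposited tables.

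The small Maf partners of Nrf2, the competing repressor Bach1 and the adaptor Keap1 changed too, each in its own way. Maff rose at E1 by 1.67 ± 0.20 with shRNA-cFos and 0.93 ± 0.20 with shRNA-Ctrl in the authors' deposited tables, and had 0.07 ± 0.20 with overexpression. Its E1 response was larger with shRNA-cFos, by 0.74 ± 0.29 computed from the authors' deposited tables, a call lost at an adjusted p under 0.01 and when every gene with a p was adjusted. Mafk rose by 0.66 ± 0.15 with shRNA-cFos and 0.92 ± 0.14 with shRNA-Ctrl in the authors' deposited tables. Mafg had -0.02 ± 0.10 with shRNA-cFos and rose by 0.49 ± 0.08 with shRNA-Ctrl in the authors' deposited tables, a difference of -0.51 ± 0.13. Bach1 rose with overexpression (0.72 ± 0.12) and at E1 with shRNA-Ctrl (0.38 ± 0.09), and with shRNA-cFos had 0.17 ± 0.12, by the authors' deposited tables. Keap1 fell at E1, at -0.23 ± 0.09 with shRNA-cFos and -0.43 ± 0.07 with shRNA-Ctrl, and had -0.03 ± 0.08 with overexpression, in the authors' deposited tables.

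Pooled over 126 further genes of the network, in 8 lists by role, calls were about as frequent as over all genes. By the authors' deposited table for overexpression 10 of 121 tested rose and 6 fell, where 7.10% of all genes were called higher and 5.86% lower. For shRNA-cFos the authors' deposited table had 22 of 119 higher and 15 lower, beside 16.3% and 11.7% of all genes. For shRNA-Ctrl the authors' deposited table had 26 of 121 higher and 17 lower, beside 16.8% and 16.2%. The median log2 fold changes were -0.02, 0.04 and 0.07 in this order, from the authors' deposited tables, and those of all tested genes lay within 0.01 of 0. The E1 responses of 32 of 119 differed between the hairpins, 17 higher and 15 lower with shRNA-cFos, beside 23.8% of all genes, computed from the authors' deposited tables. Calls were more frequent in the list of 16 Nrf2 regulators and partners in the hairpin comparisons. There 6 rose and 4 fell with shRNA-cFos, and 5 rose and 4 fell with shRNA-Ctrl, beside the shares of all genes given above. With overexpression 1 of the 16 rose and 0 fell.

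**Figure D5:**
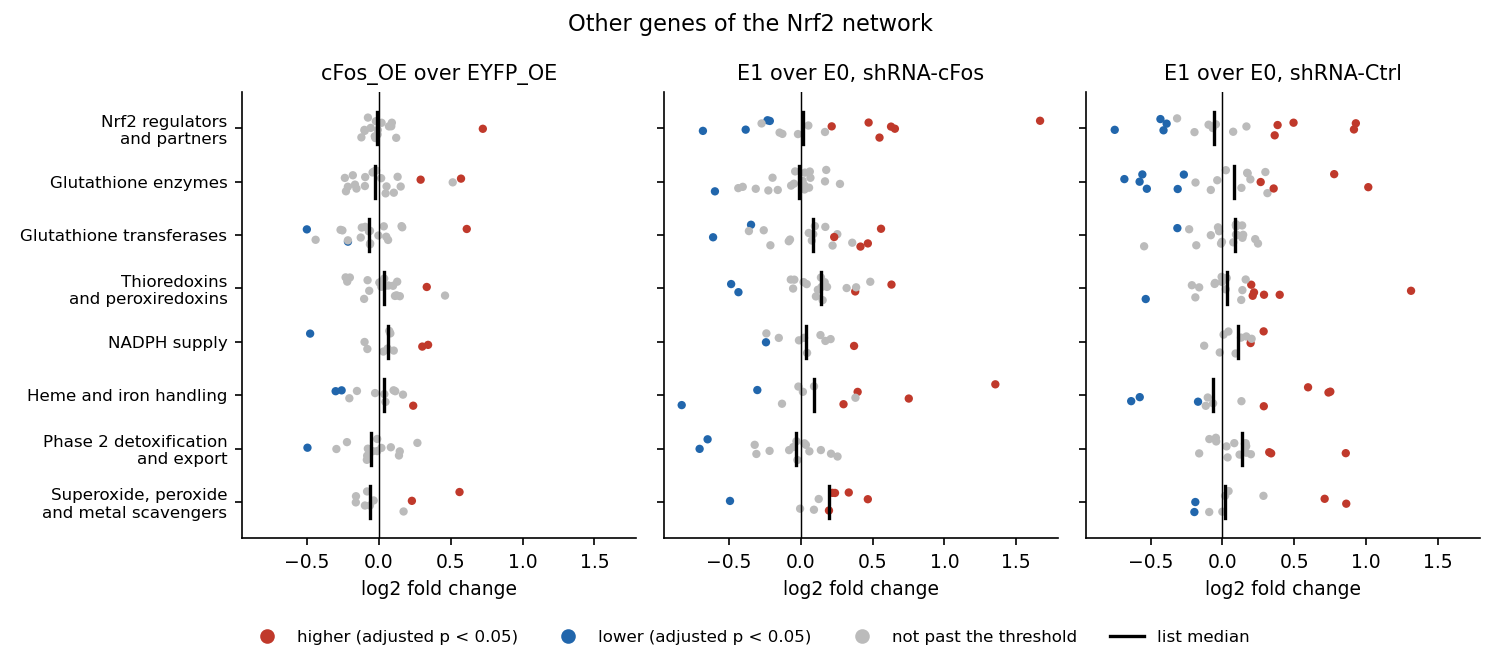
Log2 fold changes of the other Nrf2 network genes by list in the 3 deposited comparisons; each point is a gene coloured by the authors' adjusted p and the black bar is the list's median. The medians lie between -0.07 and 0.20.

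The list of thioredoxins and peroxiredoxins also holds sestrins, methionine sulfoxide reductases and other thioredoxin-linked genes, so its counts are not counts of the substrates of Txnrd1 and Srxn1. Of its genes 1 of 19 rose and 0 fell with overexpression, 2 rose and 2 fell with shRNA-cFos, and 6 rose and 1 fell with shRNA-Ctrl, in the authors' deposited tables. Over all genes, 13.0%, 28.1% and 33.0% were called in that order. Txn1, cytosolic thioredoxin, was called higher in all 3, at 0.33 ± 0.09, 0.38 ± 0.10 and 0.20 ± 0.07 for overexpression, shRNA-cFos and shRNA-Ctrl in the authors' deposited tables. Prdx6, a peroxiredoxin that uses glutathione, went opposite ways at E1, with -0.43 ± 0.11 for shRNA-cFos and 0.29 ± 0.10 for shRNA-Ctrl in the authors' deposited tables. Sesn2, a stress-induced sestrin, did so more strongly, with -0.48 ± 0.13 for shRNA-cFos and 1.31 ± 0.15 for shRNA-Ctrl in the authors' deposited tables. Prdx1, named here after its values were seen, is a main substrate of sulfiredoxin and was called with shRNA-Ctrl (0.21 ± 0.07), but had 0.00 ± 0.09 with overexpression, where Srxn1 rose most, in the authors' deposited tables.

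Beside the counts of the lists that follow, the share of all genes called was 13.0% with overexpression, 28.1% with shRNA-cFos and 33.0% with shRNA-Ctrl in the authors' deposited tables. Heme and iron handling genes were called for 3 of 11 with overexpression (1 higher, 2 lower), 6 of 11 with shRNA-cFos (4 and 2) and 7 of 11 with shRNA-Ctrl (4 and 3), in the authors' deposited tables. Tfrc, the transferrin receptor, rose at E1 by 1.36 ± 0.11 with shRNA-cFos and 0.75 ± 0.11 with shRNA-Ctrl, and fell with overexpression (-0.30 ± 0.08), in the authors' deposited tables. Ftl1, a ferritin light chain gene, had the directions of Hmox1, with 0.24 ± 0.07 for overexpression, -0.30 ± 0.11 for shRNA-cFos and 0.60 ± 0.12 for shRNA-Ctrl in the authors' deposited tables. Fth1, the heavy chain gene, did not, with -0.26 ± 0.08, 0.75 ± 0.09 and 0.29 ± 0.09 in the authors' deposited tables. Ferritin genes have many near-identical copies, so their counts are uncertain. Slc40a1, the iron exporter ferroportin, fell at E1 with both hairpins, at -0.83 ± 0.18 for shRNA-cFos and -0.58 ± 0.15 for shRNA-Ctrl in the authors' deposited tables.

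Glutathione enzymes other than the members were called for 2 of 20 with overexpression (both higher), 1 of 20 with shRNA-cFos (lower) and 10 of 20 with shRNA-Ctrl (4 higher, 6 lower), in the authors' deposited tables. Chac1, which degrades glutathione, rose at E1 with shRNA-Ctrl (1.02 ± 0.18) and with shRNA-cFos had -0.31 ± 0.20, by the authors' deposited tables. Gss, which completes glutathione synthesis, fell with both hairpins, at -0.60 ± 0.11 for shRNA-cFos and -0.31 ± 0.10 for shRNA-Ctrl in the authors' deposited tables. Glutathione transferases were called for 3 of 20, 6 of 19 and 1 of 20 in the order overexpression, shRNA-cFos and shRNA-Ctrl, in the authors' deposited tables; the Gstm genes are close paralogs and their counts are uncertain. Detoxification and export genes were called for 1 of 16, 2 of 15 and 3 of 16 in that order, in the authors' deposited tables. Among them Ephx1, microsomal epoxide hydrolase, fell at E1 with shRNA-cFos (-0.65 ± 0.15) and rose with shRNA-Ctrl (0.86 ± 0.22) in the authors' deposited tables. NADPH supply genes were called for 3 of 10, 2 of 10 and 2 of 10, in the authors' deposited tables. The metal-binding Mt1 and Mt2 rose in all 3 comparisons, among 2, 6 and 4 of 9 scavenger genes called, in the authors' deposited tables. Mt2 had 0.56 ± 0.11 with overexpression, 0.33 ± 0.13 with shRNA-cFos and 0.71 ± 0.13 with shRNA-Ctrl in the authors' deposited tables, the call with shRNA-cFos being lost when every gene with a p was adjusted.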

How the data were processed

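Libraries were grouped by their sample titles. The submitters' processing notes name TopHat2, DESeq2 and the build mm9, with no roles or versions. Counting tool, annotation and strand setting: not given in the sources used here. Per the file headers, each of the authors' deposited tables gives a mean normalized count (a signal value), a log2 fold change with its standard error, a Wald score, a p-value and an adjusted p-value. They hold 0 columns of values per library, so depth per library is unknown and no library could be refitted or left out. Precision is that of the authors' standard errors, with medians over tested genes of 0.12 for overexpression, 0.12 for shRNA-cFos and 0.11 for shRNA-Ctrl.

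The deposited log2 fold changes appear shrunken toward 0, since their standard errors peak at 0.20, 0.26 and 0.29; the authors' settings are not stated. Normal priors around 0 with standard deviations of 0.41, 0.53 and 0.59 were inferred from those largest standard errors and undone algebraically. Group levels, which rest on this inference, were then derived from the mean count by assuming equal group sizes. E1 responses were compared by subtracting one log2 fold change from the other and dividing by the combined standard error (square root of the sum of squares), using the normal distribution (2-sided) and adjusting by Benjamini-Hochberg across genes adjusted in both tables (Python 3.11.15, pandas 2.3.3, scipy 1.17.1), checked on simulated data. In the table for overexpression, 27 symbols had become dates and were left out.

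The members and gene lists were chosen with earlier results of these data known. All 10 members are described. Of each list at most the 4 largest called changes per table are named, beside Keap1, Bach1 and the Maf genes; Prdx1, Gsk3b, Btrc and Cul3 were chosen after their values were seen. Alternatives were adjusted p under 0.01, a 1.5-fold minimum, Bonferroni adjustment, adjustment over every gene with a p, and removal of the prior.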

Additional observations from a re-analysis of the deposited data

Results flagged for a closer look

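In 4 members the E1 response differed between the hairpins by the test of the difference itself. The differences, shRNA-cFos minus shRNA-Ctrl on the log2 scale and computed from the authors' deposited tables, were -1.93 for Hmox1, -0.93 for Nfe2l2, -0.90 for Srxn1 and 0.84 for Slc7a11. The members were chosen with these values known, so the flags are descriptions. Hmox1 and Nfe2l2 moved in opposite directions with the 2 hairpins, whereas Srxn1 rose with both.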

How the results depend on the processing

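Other settings moved some counts of called members, each from the authors' deposited tables. With overexpression the 2 calls became 1 under Bonferroni adjustment, which kept Srxn1 and not Hmox1. With shRNA-cFos the 4 calls became 2 at a 1.5-fold minimum, Hmox1 and Nfe2l2. With shRNA-Ctrl the 5 calls became 2 at a 1.5-fold minimum and 2 under Bonferroni adjustment, Srxn1 and Hmox1 in both cases. The 4 members whose E1 response differed were the same under each alternative run. Removing the prior scales a fold change and its standard error alike, so it cannot change a direction or p within a comparison; the 4 differing E1 responses also kept theirs. It took Srxn1 with overexpression to 2.30 and Hmox1 to 0.77, -1.03 and 1.10 for overexpression, shRNA-cFos and shRNA-Ctrl. For the other network genes, the 16 calls of 121 with overexpression became 10 at an adjusted p under 0.01, 2 at 1.5-fold and 5 under Bonferroni adjustment. The shares of all genes called were 8.63%, 3.89% and 3.87% in that order. The 37 of 119 with shRNA-cFos became 22, 12 and 9 in the same order, beside 18.2%, 7.49% and 7.12% of all genes. The 43 of 121 with shRNA-Ctrl became 14 at 1.5-fold and 18 under Bonferroni adjustment, beside 10.6% and 10.2%. The 32 of 119 differing E1 responses became 15 at 1.5-fold, where 11.9% of all genes differed. These alternatives for the network genes were chosen after seeing the data. No paired analysis was possible because the tables carry no values per library, and for the same reason no replicate was left out and no other normalization was run. Osgin1 had low mean counts: its changes with the hairpins become -0.64 and 1.21 for shRNA-cFos and shRNA-Ctrl with the prior removed, values near the limit of that step.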

Other observations

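Further regulators of Nrf2 were called in the hairpin comparisons; Gsk3b, Btrc and Cul3 were chosen after their values were seen. Gsk3b, a kinase that marks Nrf2 for Btrc-dependent destruction, rose at E1 with shRNA-cFos (0.55 ± 0.12) and had -0.07 ± 0.12 with shRNA-Ctrl in the authors' deposited tables. Btrc, the substrate receptor of that ubiquitin ligase, rose with shRNA-cFos (0.22 ± 0.08) and fell with shRNA-Ctrl (-0.39 ± 0.06) in the authors' deposited tables. Nfe2l1, a related factor that binds the same element, rose with shRNA-cFos (0.63 ± 0.11) and had 0.07 ± 0.10 with shRNA-Ctrl in the authors' deposited tables. Cul3, the ligase scaffold used with Keap1, rose with both, by 0.47 ± 0.11 for shRNA-cFos and 0.36 ± 0.11 for shRNA-Ctrl in the authors' deposited tables.

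Some of the 16 further network genes called with c-Fos overexpression in the authors' deposited table were not named above. Hagh, a glyoxalase enzyme, rose by 0.57 ± 0.09, and G6pdx, which supplies NADPH, by 0.34 ± 0.10 in the authors' deposited table. Gsta4, a transferase for lipid peroxidation products, fell, at -0.50 ± 0.10, as did Ptgr1, at -0.50 ± 0.18, in the authors' deposited table.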
